A study of Mus musculus with 8 samples.

Results

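The genes described here are Fgf21 and Gdf15, which encode a pair of stress-responsive hormones, and Klb and Fgfr1, which encode the receptor proteins through which FGF21 acts. They were chosen by name, with their measured differences between the groups of this study already known, so their levels and differences are given as a description with no test. Of the 4 listed genes, 3 had a probe in the table used, with 4 probes in all, out of 16593 genes and 25697 probes. Gdf15 was not analysed here. RNA came from an immortalized line of mouse brown adipocytes, a cell culture model that lacks the other cells of brown fat, after 8 days of differentiation. In the Z16078526 group, 4 samples were kept for 18 h with 10 µM of the compound Z16078526. In the DMSO group, 4 samples received the vehicle alone. The stated aim was to characterize what the compound does to these cells, and each sample was measured on 1 array.

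FGF21 is a hormone of the fibroblast growth factor (FGF) family that binds heparan sulfate weakly and therefore circulates. It signals through FGFR1, a receptor tyrosine kinase, when beta-klotho, the product of Klb, is present as co-receptor, and the RAS and ERK kinases carry the signal on. GDF15, a distant member of the TGF beta family, acts through GFRAL and the kinase RET on neurons of the hindbrain. In mouse, Fgf21 is a known target of the transcription factor ATF4, the effector of the integrated stress response, and of the fatty acid sensors PPAR alpha and PPAR gamma. Brown fat is known to secrete FGF21 when it is activated.

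The sequences just upstream of Fgf21 and Klb are shown because these genes stood at higher levels on the Z16078526 arrays and because known regulators of Fgf21 bind near its start. RefSeq (GRCm38.p6) gave a window for 3 of the 4 listed genes. Each sequence holds the 250 bases before the gene's start, 5′ to 3′ on the gene's own strand, and capitals mark motif matches.
Fgf21, chr7:45615491-45615740, minus strand: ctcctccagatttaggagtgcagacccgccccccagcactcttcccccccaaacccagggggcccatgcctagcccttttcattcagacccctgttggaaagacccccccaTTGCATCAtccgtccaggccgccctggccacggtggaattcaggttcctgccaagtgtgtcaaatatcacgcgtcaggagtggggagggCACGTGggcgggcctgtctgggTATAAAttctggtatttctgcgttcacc
Klb, chr5:65348161-65348410, plus strand: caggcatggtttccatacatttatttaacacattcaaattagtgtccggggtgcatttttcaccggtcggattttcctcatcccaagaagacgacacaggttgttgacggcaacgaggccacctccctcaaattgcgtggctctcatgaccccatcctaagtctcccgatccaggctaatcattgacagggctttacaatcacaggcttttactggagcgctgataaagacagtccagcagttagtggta

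Both strands were searched for 5 motifs. TGATGNAA, the C/EBP-ATF response element, was found on the opposite strand of the Fgf21 window, 139 to 132 bases upstream, and in 3.45% of 32851 windows of this length. The gene's own strand, as printed, reads TTGCATCA there. CACGTG, an E-box of the kind bound by the carbohydrate-responsive factor ChREBP and other factors, lay 50 to 45 bases upstream of Fgf21 and was found in 6.02% of windows. TATAAA, the TATA box, lay 28 to 23 bases upstream of Fgf21 and was found in 12.4% of windows. The 3 matches did not overlap. TGACGTCA, the cAMP response element (1.55% of windows), was not among the letters of either window. Neither was AGGTCA repeated after 1 base, the arrangement bound by PPARs with their partner RXR (0.0335% of windows). Only this exact run of 13 letters was searched, so its absence says nothing of sites that differ from it. The Klb window held none of the 5 motifs. A match is a run of letters and says nothing of binding in these cells.

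The labelled cell type was checked against marker genes. Per array, 13528 to 13564 probes lay above an intensity of 16, the floor to which lower and negative intensities were raised, and correlations between arrays ran from 0.9888 to 0.9966. All 6 adipocyte markers lay above the floor on all 8 arrays, with a summed intensity of 72167 to 77339.8 in the Z16078526 group and 73847 to 77066 in the DMSO group. Of these, Cidec and Fabp4 rose and Pparg fell. Of 6 brown adipocyte markers, 5 lay above the floor on all arrays and Dio2, the deiodinase of activated brown fat, lay at the floor on all 8. The brown markers summed to 4833 to 5969.8 in the Z16078526 group, against 3106 to 3550.4 in the DMSO group, and Cidea, Ucp1 and Cox8b rose. The 4 preadipocyte markers measured summed to 2009 to 2172 in the Z16078526 group and 2074 to 2571 in the DMSO group, and none passed the limma test. Such sums are carried by the brightest probes. The DMSO mean log2 was 15.1 for Lpl but 6.54 for Fabp4, and 10.2 for Cox8b but 4.87 for Ucp1. Other cell types were represented by 15 measured markers, of which 8 lay at the floor on all 8 arrays: Ptprc and Itgam of macrophages, Cdh5 and Kdr of endothelium, Alb and Ttr of liver, and Myod1 and Ckm of skeletal muscle. Of the other 7, Apoa1 of liver lay above the floor on all 8 arrays and rose (log2 difference 0.40, limma adjusted p = 0.0255). Tek of endothelium lay above it on 0 of 4 Z16078526 arrays and 4 of 4 DMSO arrays and fell (-0.21, limma adjusted p = 0.00755). All Z16078526 values of Tek were set to the floor, so their SD was 0, and the p depends on this. The DMSO mean of Tek was 4.21, near the log2 floor of 4. Pecam1, Adgre1, Myog, Acta1 and Serpina1a lay above the floor on some arrays, and none of these passed the limma test.

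Fgf21 was far higher in the cells kept with Z16078526. Its intensity was 848, 949.9, 1111 and 1009 on the Z16078526 arrays, against 304, 264, 269.6 and 328 on the DMSO arrays. The groups did not overlap, and the lowest Z16078526 array was 2.59 times the highest DMSO array. Over all 16593 genes, 19.8% had groups that did not overlap, 10.6% higher and 9.2% lower in the Z16078526 group. The Fgf21 means were 979.7 ± 110.2 in the Z16078526 group and 292 ± 30.0 in the DMSO group (SD, n = 4 each). On the log2 scale the difference, Z16078526 minus DMSO, was 1.75 ± 0.11 (SE), or 3.36-fold. Only 5 of the 16593 genes had a larger positive difference. As these are bulk samples, a change in the number of cells that make a transcript and a change in the amount per cell cannot be told apart. Of the 6 brown adipocyte markers 3 also rose, while Ppargc1a and Ebf2 did not pass the limma test (adjusted p = 0.229 and 0.59) and Dio2 lay at the floor, and the part of these markers in the Fgf21 difference was not tested.

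Klb, the co-receptor, was also higher. Its intensity was 1455, 1317, 1573 and 1305 on the Z16078526 arrays, against 848, 891, 682 and 663 on the DMSO arrays. The groups did not overlap, and the lowest Z16078526 array was 1.47 times the highest DMSO array. The means were 1413 ± 127 in the Z16078526 group and 771 ± 115 in the DMSO group (SD, n = 4 each). The log2 difference was 0.88 ± 0.12 (SE), or 1.84-fold, and 178 genes had a larger positive one.

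Fgfr1, the receptor, had a pair of probes, neither of which was higher in the Z16078526 group. The brighter probe gave 107, 107, 102 and 78.4 on the Z16078526 arrays, against 139.8, 122, 119.8 and 102 on the DMSO arrays. The groups overlapped, and array 4 of the Z16078526 group was the lowest of all. The means were 98.8 ± 13.8 in the Z16078526 group and 121 ± 15.4 in the DMSO group (SD, n = 4 each), with a log2 difference of -0.30 ± 0.15 (SE). Without array 4 of the Z16078526 group the difference was -0.19.

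The dimmer Fgfr1 probe lay near the floor. It gave 15.6, 16.2, 12.0 and 0.92 on the Z16078526 arrays, against 35.7, 36.7, 51.9 and 32.3 on the DMSO arrays. It was above the floor on 1 of 4 Z16078526 arrays and 4 of 4 DMSO arrays, and the groups did not overlap. Its log2 difference after the floor was -1.26 ± 0.14 (SE). With the mean of the probes, the log2 difference of Fgfr1 was -0.78. The probes thus differed in size of change, and the cause was not tested.

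Set side by side, the hormone gene Fgf21 and the co-receptor gene Klb stood higher in the Z16078526 group, while the receptor gene Fgfr1 stood no higher on either probe. Levels are not compared between probes, since a probe's brightness depends on its sequence. With limma at an adjusted p under 0.05 over all genes, 15.2% of genes were called, 7.97% higher and 7.19% lower. Calls are given below for other genes only, since Fgf21, Klb and Fgfr1 were chosen on this contrast.

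**Figure D1:**
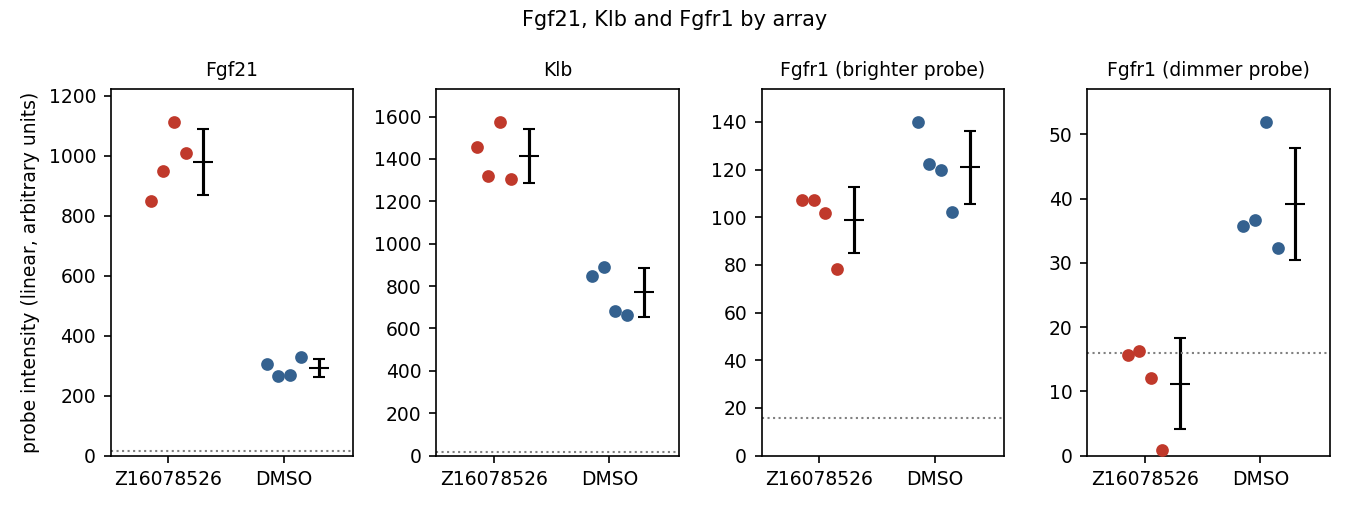
Linear probe intensity (arbitrary units, axes from 0) on each array for the probes of Fgf21, Klb and Fgfr1, with the 4 Z16078526 arrays (red points) beside the 4 DMSO arrays (blue points), bars for the mean and SD, and a dotted line at the floor of 16. The groups are apart for Fgf21 (848 to 1111 against 264 to 328) and Klb (1305 to 1573 against 663 to 891), and overlap for the brighter Fgfr1 probe.

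Around these genes, 16 lists of hormones, receptors, signalling steps and regulators were examined. Leaving out Fgf21, Klb and Fgfr1, 195 listed genes were measured and 59 were called, 38 higher and 21 lower. The lists were chosen with results of these data known. The median log2 difference of all genes was 0, and beside each list's count stand the background shares given above. Both take in 5504 genes at the floor on all 8 arrays, whose difference was 0 and which could not be called. By contrast, 21 of 24 ATF4 targets and 18 of 20 PPAR targets lay above the floor on all arrays. The shares and the median are thus not like for like with such lists. A call was lost in at least 1 of the 8 fits that leave out an array for 17 of the 59 genes.

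The other endocrine FGFs stayed at or near the floor. Fgf15, the bile acid hormone of the mouse gut, was at the floor on all 8 arrays. Fgf23, the phosphate hormone, had intensities of 26.2, 37.6, 7.50 and 15.6 on the Z16078526 arrays and 32.0, 31.7, 32.4 and 22.1 on the DMSO arrays. The groups overlapped (log2 difference -0.38 ± 0.31 SE, limma adjusted p = 0.672).

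Among the other klotho family genes, Lctl rose. Lctl encodes a klotho-like membrane protein. Its intensity was 2251, 1919, 1704 and 1759 on the Z16078526 arrays, against 744, 925, 878 and 745 on the DMSO arrays. All Z16078526 arrays lay above all DMSO arrays, with a log2 difference of 1.21 ± 0.12 (SE), 2.32-fold (limma adjusted p = 0.0014). Kl, which encodes the alpha-klotho co-receptor of FGF23, was at the floor on both probes on all 8 arrays.

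Of the 4 FGF receptor genes measured beside Fgfr1, 0 rose and 1 fell by limma, as many as at an unadjusted p under 0.05. The median log2 difference of the 5 was -0.15. Fgfr2 gave 19.3, 20.2, 13.0 and 19.6 on the Z16078526 arrays and 32.0, 42.5, 29.5 and 25.1 on the DMSO arrays, by the brightest of its 3 probes. These low intensities did not overlap between groups (log2 difference -0.76 ± 0.17 SE, limma adjusted p = 0.0276). The Fgfr2 call was lost without DMSO array 1, DMSO array 3 or any Z16078526 array (adjusted p up to 0.0764), with a floor of 50, where all its arrays lay at the floor, with a pseudocount of 16 (0.0522), with a robust variance (0.108) and with the mean of its probes (0.195). The replicate block, a fit with a term for the array number, lost the Fgfr2 call too (limma adjusted p = 0.0729). Fgfr3 was at the floor on both probes on all arrays, and Fgfr4 was above it on 1 Z16078526 array.

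Fgfrl1, a receptor-like protein that lacks the kinase domain, gave 1816, 1689.9, 1690.4 and 1836 on the Z16078526 arrays and 2115, 1846, 1799 and 2050.1 on the DMSO arrays. Its groups overlapped (log2 difference -0.15 ± 0.06 SE, limma adjusted p = 0.202).

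**Figure D2:**
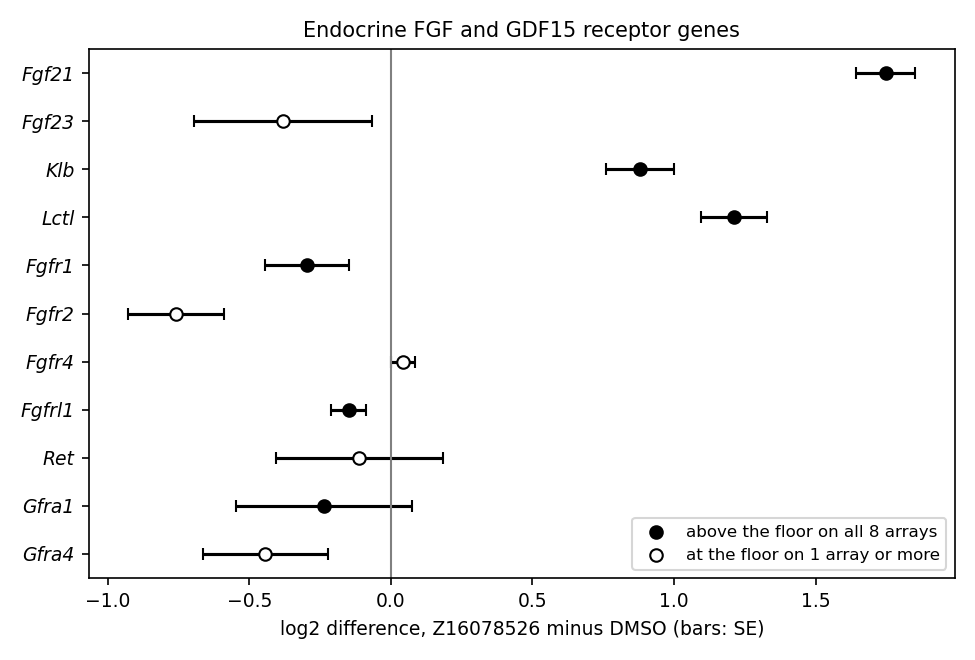
Log2 difference, Z16078526 minus DMSO, with its SE as a bar, of the brightest probe of each endocrine FGF, klotho, FGF receptor and GDF15 receptor gene that was above the floor on at least 1 array; open points were at the floor on 1 array or more. Fgf21, Klb and Lctl lie at 1.75, 0.88 and 1.21, and Fgfr2 lies lowest at -0.76.

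The receptor genes for GDF15 and its relatives were low. Gfral, the GDF15 receptor known from neurons of the hindbrain, was at the floor on all 8 arrays, as were Gfra2 and Gfra3. Ret, the signalling partner of these receptors, gave 14.7, 25.2, 32.8 and 3.73 on the Z16078526 arrays and 28.0, 19.8, 18.0 and 28.8 on the DMSO arrays by its brighter probe, with overlapping groups. None of the 6 genes of this list passed the limma test, and 0 had an unadjusted p under 0.05. Gfra1 had a log2 difference of -0.24 and Gfra4 one of -0.44 (limma adjusted p = 0.891 and 0.301).

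Of 19 paracrine and intracellular FGF genes, 10 were at the floor on all arrays, 1 rose and 1 fell. Fgf7, the keratinocyte growth factor that acts on an FGFR2 isoform, fell: it gave 1142, 1134, 1054 and 1149 on the Z16078526 arrays and 1535, 1778, 2213 and 1582 on the DMSO arrays. The groups did not overlap (log2 difference -0.65 ± 0.12 SE, limma adjusted p = 0.0131). The Fgf7 call was lost with the replicate block (limma adjusted p = 0.0893). Fgf12, an intracellular FGF that binds sodium channels, gave 37.2, 46.8, 62.2 and 45.0 on the Z16078526 arrays and 23.1, 11.3, 28.4 and 17.7 on the DMSO arrays (1.18 ± 0.23 SE, limma adjusted p = 0.0176). Its call was lost without DMSO array 4 or Z16078526 array 2 (adjusted p 0.0521 and 0.0529) and with a floor of 50. It was lost too with the replicate block (limma adjusted p = 0.0507).

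Downstream of the receptors, 12 of 20 listed adaptors and RAS-ERK genes were measured, of which 1 rose and 4 fell, with a median log2 difference of -0.11. Map2k1, the kinase MEK1, rose: it gave 176, 183, 215 and 159.9 on the Z16078526 arrays, against 99.8, 104, 94.2 and 103 on the DMSO arrays (log2 difference 0.86, limma adjusted p = 0.00256). Gab1, a docking protein of FGF receptors, fell: it gave 577, 563, 658 and 590.2 on the Z16078526 arrays, against 1031, 924, 890.5 and 989 on the DMSO arrays (log2 difference -0.68, limma adjusted p = 0.00143). Map2k2 (MEK2), Araf (a RAF kinase) and Shc1 (an adaptor) fell by less, with log2 differences of -0.24, -0.27 and -0.25 (limma adjusted p = 0.00567, 0.0344 and 0.0364). The Map2k2 call was lost with the mean of its probes (0.489), and those of Araf and Shc1 without any 1 DMSO array, Z16078526 array 1 and, for Araf, array 4 or, for Shc1, array 2 (adjusted p up to 0.0918 and 0.102), with that of Shc1 lost also with the mean of its probes (0.0596). The list's count of 5 was 3 without DMSO array 2, 3 or 4 or without Z16078526 array 1.

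Of 21 measured genes of the FGF and ERK feedback and response list, 3 rose and 0 fell by limma, with a median log2 difference of 0.03. Before adjustment, 5 were higher and 1 lower at a p under 0.05. The lower one was Ccnd1, cyclin D1, named after its value was seen: it gave 169.6, 222, 381 and 204 on the Z16078526 arrays and 359, 483, 561 and 416 on the DMSO arrays, with overlapping groups (log2 difference -0.95 ± 0.27 SE, limma adjusted p = 0.0683). Ccnd1 was called lower in the alternatives with array weights (0.0271), the filter on dim genes (0.00135), the replicate block (0.0411) and the mean of its probes (0.0246). Fos, the immediate early factor, gave 272, 299, 297 and 234 on the Z16078526 arrays and 129.8, 152, 156 and 108 on the DMSO arrays, with no overlap (log2 difference 1.02 ± 0.14 SE, limma adjusted p = 0.00552). Spry3, of the Sprouty family of inhibitors, and Ier3, an early response gene, rose by 0.56 and 0.45 (limma adjusted p = 0.00507 and 0.0189). The Ier3 call was lost without Z16078526 array 4 (adjusted p = 0.0537) and with the replicate block (limma adjusted p = 0.0601).

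The 3 defining genes of that list did not pass. Egr1, the early growth response factor, gave 3609.8, 4113, 4991 and 4337 on the Z16078526 arrays and 3716, 4085, 4226 and 3954 on the DMSO arrays (limma adjusted p = 0.818). Spry4, an inhibitor of the cascade, had a log2 difference of 0.10 (limma adjusted p = 1). Dusp6, the phosphatase that removes phosphate from ERK, had one of 0.43 (limma adjusted p = 0.132), and was called only in the alternatives that leave out dim genes (0.0176) or use a robust variance (0.0187).

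FGFs are held at the cell surface by heparan sulfate, the chain from which FGF21 escapes. Of 17 measured genes of these proteoglycans, their enzymes and FGF-binding proteins, 0 rose and 4 fell by limma, with a median log2 difference of -0.04. Before adjustment, 0 were higher and 5 lower at a p under 0.05. Sdc3, a syndecan core protein, gave 1808, 1725, 1834 and 1720.3 on the Z16078526 arrays, against 3146, 3202, 3413 and 2766 on the DMSO arrays (log2 difference -0.82, limma adjusted p = 0.000794). Sdc2, another syndecan, Hs6st1, a sulfotransferase, and Ext2, a chain polymerase, fell with log2 differences of -0.47, -0.43 and -0.30 (limma adjusted p = 0.00754, 0.00613 and 0.0221). The Ext2 call was lost without DMSO array 1, 2 or 3 or without Z16078526 array 1 (adjusted p up to 0.0665).

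Proteases mature or clear these hormones. Of 4 measured genes for such proteases, 0 rose and 3 fell by limma, with a median log2 difference of -0.59. Before adjustment, 0 were higher and 4 lower at a p under 0.05. Furin, a proprotein convertase, gave 2286, 2231, 2119 and 2297 on the Z16078526 arrays and 4542, 4857, 4116 and 3884 on the DMSO arrays. The groups did not overlap, and Furin was 1.94-fold lower (log2 difference -0.96 ± 0.07 SE, limma adjusted p = 0.000725). Fap, the protease that inactivates human FGF21, gave 8.18, 11.3, 12.3 and 20.3 on the Z16078526 arrays and 28.7, 28.5, 22.2 and 43.3 on the DMSO arrays (-0.81, limma adjusted p = 0.0453). Pcsk7, another convertase, had a log2 difference of -0.18 (limma adjusted p = 0.0355). The Fap call was lost without DMSO array 1 or 2 or any Z16078526 array (adjusted p up to 0.117), with a floor of 50, without a variance trend and with a robust variance, and that of Pcsk7 without DMSO array 1, 3 or 4 or Z16078526 array 1, 2 or 3 (up to 0.0999), with the filter on dim genes (0.119) and with a robust variance (0.372). The Fap and Pcsk7 calls were lost too with the replicate block (limma adjusted p = 0.0501 and 0.0565). The list's count of 3 was 1 without DMSO array 1 or Z16078526 array 1, 2 or 3.

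The regulators known to act on Fgf21 were examined next. Of 14 measured kinases and factors of the integrated stress response, 3 rose and 1 fell, with a median log2 difference of 0.01. Atf3, a stress-induced factor, gave 199, 209.5, 186 and 201 on the Z16078526 arrays and 98.8, 80.9, 82.2 and 114 on the DMSO arrays, a 2.13-fold difference with no overlap (log2 difference 1.09 ± 0.13 SE, limma adjusted p = 0.00247). Nupr1, a stress-induced chromatin protein, rose by 0.43 (limma adjusted p = 0.00779), and Atf5, a stress-responsive factor, had a log2 difference of -0.53 (limma adjusted p = 0.00153).

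Ddit3, the factor CHOP, gave 7254, 7612, 7350.0 and 9092 on the Z16078526 arrays and 5578, 4441, 5532 and 6247 on the DMSO arrays (log2 difference 0.53 ± 0.12 SE, limma adjusted p = 0.0322). Its call was lost without DMSO array 1, DMSO array 3 or any Z16078526 array (adjusted p up to 0.0782). The replicate block lost the Ddit3 call too (limma adjusted p = 0.0578). Atf4 itself gave 6614, 5327, 3613 and 5292 on the Z16078526 arrays and 5656, 5466, 5933 and 5759 on the DMSO arrays. Its groups overlapped (log2 difference -0.16, limma adjusted p = 0.764). ATF4 is known to be controlled mainly at translation, which these arrays do not measure.

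Of 24 ATF4 target genes, 11 rose and 1 fell, with a median log2 difference of 0.27. Nars, which loads asparagine onto tRNA, gave 3014, 2962, 3013 and 2818 on the Z16078526 arrays, against 1710.1, 1756, 1698 and 1750.3 on the DMSO arrays (log2 difference 0.77, limma adjusted p = 8.15e-05). Asns, asparagine synthetase, gave 13082, 14222, 14587 and 15028 on the Z16078526 arrays, against 8964, 8495, 8228 and 9347 on the DMSO arrays (0.70, limma adjusted p = 0.000867). Ppp1r15a, the phosphatase subunit GADD34, Psat1, of serine synthesis, and Mthfd2, of mitochondrial folate metabolism, rose by 0.63, 0.55 and 0.36 (limma adjusted p = 0.000222, 0.00217 and 0.00802). Slc7a5, a large amino acid transporter, had a log2 difference of -0.59 (limma adjusted p = 0.0108). The list's count of 12 was 7 without DMSO array 3, with 6 higher in place of 11, and 7 were higher without DMSO array 1 or Z16078526 array 2. Averaging each gene's probes, 7 were called higher and 2 lower, since Vldlr, a lipoprotein receptor and 1 of the 11, turned to -0.44 (limma adjusted p = 0.0138), and with the replicate block 5 were called, all higher.

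Of 14 nuclear receptors and coactivators known to act on Fgf21, 2 rose and 2 fell, with a median log2 difference of 0.01. Pparg, the master factor of adipocytes, gave 8069.8, 7852, 8587 and 8614 on the Z16078526 arrays, against 10643, 11281, 12144 and 10769.9 on the DMSO arrays (log2 difference -0.44, limma adjusted p = 0.00309). Mlxipl, the factor ChREBP, had a log2 difference of -0.52 (limma adjusted p = 0.0046). Nr1d1 and Rora, nuclear receptors of the circadian clock, rose by 0.62 and 0.47 (limma adjusted p = 0.0234 and 0.0487). The Nr1d1 call was lost without DMSO array 1, 2 or 4 or Z16078526 array 3 (adjusted p up to 0.0699), and that of Rora without any DMSO array or Z16078526 array 2 or 4 (up to 0.127). Both were lost with the mean of their probes (0.0617 and 0.131), and Rora also with a floor of 50 (0.0642) or no variance trend (0.0548). The list's count of 4 was 2 without DMSO array 1, 2 or 4. Ppara, the fasting sensor of liver, was above the floor on 3 Z16078526 arrays and 1 DMSO array (0.56 ± 0.26 SE, limma adjusted p = 0.26).

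Of 20 measured PPAR target genes, 12 rose and 1 fell, with a median log2 difference of 0.67. Fabp4, the adipocyte fatty acid carrier, gave 283, 325, 282 and 289 on the Z16078526 arrays, against 78.2, 99.9, 101 and 95.3 on the DMSO arrays, 3.16-fold (1.66 ± 0.10 SE, limma adjusted p = 0.000449). Cidea, a lipid droplet protein of brown fat, gave 2236, 2602, 2325 and 2316 on the Z16078526 arrays, against 1137, 1057, 1031 and 1026 on the DMSO arrays (1.16, limma adjusted p = 0.000416). Hilpda, an inhibitor of lipolysis, Aqp7, a glycerol channel, and Angptl4, a secreted inhibitor of lipoprotein lipase, rose by 0.95, 0.78 and 0.68 (limma adjusted p = 0.000497, 0.000698 and 0.000449). Fndc3b had a log2 difference of -0.67 (limma adjusted p = 0.00205). The Aqp7 call was lost with the mean of its probes (0.0617). Cidea is also a marker of brown adipocytes and Fabp4 one of adipocytes in general.

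Of 11 adipocyte genes reported to respond to FGF21, 3 rose and 0 fell by limma, with a median log2 difference of 0.09. Before adjustment, 3 were higher and 1 lower at a p under 0.05. Beside Cidea and Fos, these were Ucp1, the uncoupling protein of brown fat. Ucp1 gave 93.4, 73.4, 78.3 and 61.9 on the Z16078526 arrays, against 25.7, 35.5, 38.2 and 21.2 on the DMSO arrays, with no overlap (log2 difference 1.37 ± 0.23 SE, limma adjusted p = 0.0103). The Ucp1 call was lost with the replicate block (limma adjusted p = 0.0533). Adipoq, the hormone adiponectin, and Slc2a1, the glucose transporter GLUT1, had log2 differences of -0.04 and 0.06 (limma adjusted p = 0.893 and 0.685).

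**Figure D3:**
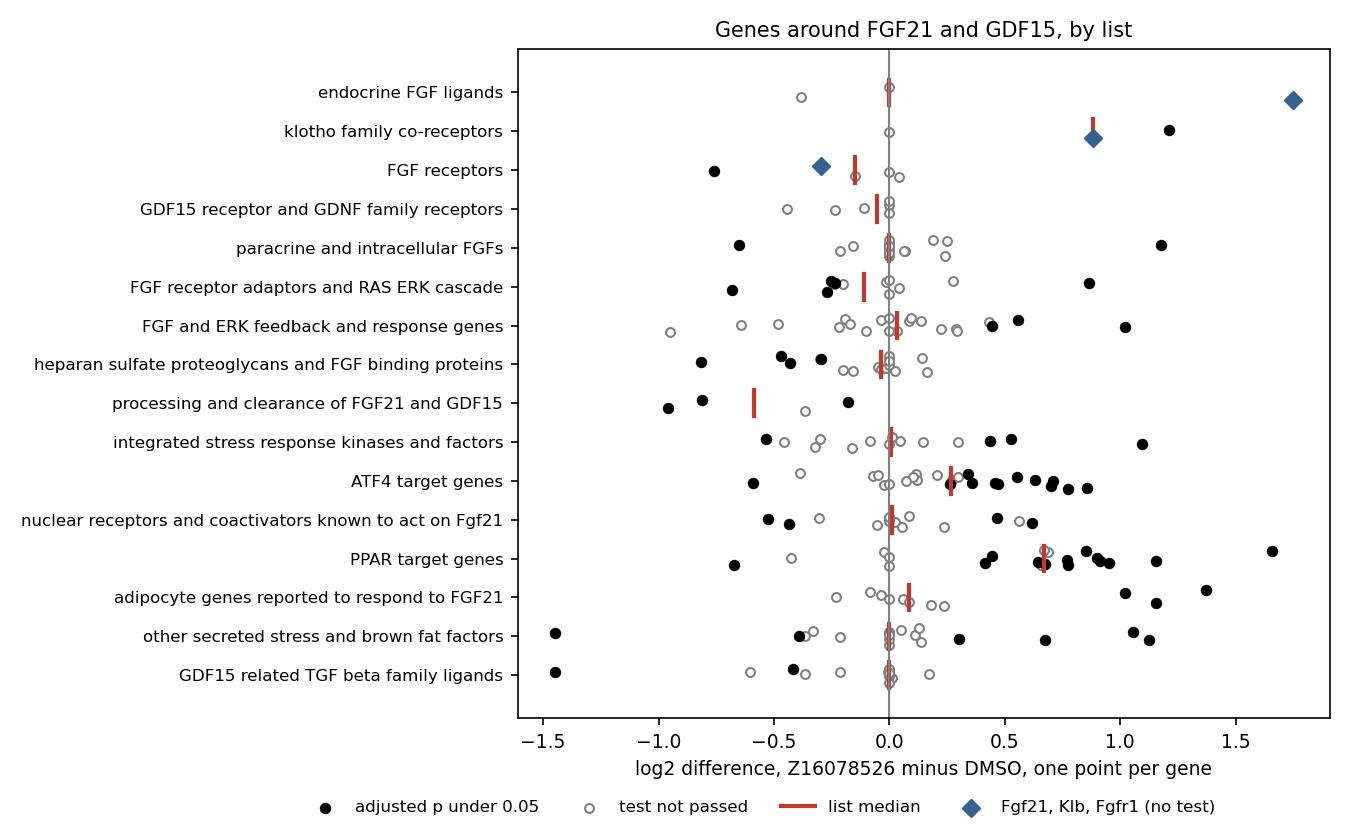
Log2 difference, Z16078526 minus DMSO, of each measured gene (1 point per gene) in the 16 lists, with filled points for an adjusted p under 0.05, open points for the others, a red bar for the list's median and blue diamonds for Fgf21, Klb and Fgfr1, which carry no test. The PPAR targets have a median of 0.67 and the ATF4 targets one of 0.27, while the FGF receptors have one of -0.15.

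Other secreted stress and brown fat factors moved both ways: of 18 measured, 4 rose and 2 fell, with a median log2 difference of 0. Nrg4, a growth factor that brown fat secretes, gave 892, 1041, 763 and 907 on the Z16078526 arrays, against 380.5, 427, 452 and 389 on the DMSO arrays (1.12, limma adjusted p = 0.00126). Nampt, an enzyme of NAD synthesis that is also secreted, and Mydgf, a secreted growth factor, rose by 1.06 and 0.30 (limma adjusted p = 0.00646 and 0.00251), as did Angptl4, given above. Vegfb, an endothelial growth factor, had a log2 difference of -0.39 (limma adjusted p = 0.00953). Inhbb, the activin B subunit, gave 357, 354, 293 and 257 on the Z16078526 arrays, against 809, 916, 893 and 800.1 on the DMSO arrays, 2.73-fold lower (-1.45 ± 0.12 SE, limma adjusted p = 0.000867).

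Genes whose profile over the 8 arrays was most like that of each of the 3 genes were found by the root mean square difference of log2 values after each gene's mean was subtracted, among 7854 candidates: the 7965 genes above the floor on all arrays without the gene itself and those with clone, accession or predicted names. This is a description. The arrays fall into 2 treatment groups, so for Fgf21 and Klb a small distance mainly means a similar difference between the groups. For Fgf21 the nearest were Fabp4 (0.215), Tlcd2 (0.232), St3gal6 (0.235), Cxadr (0.239), Aig1 (0.272), Kpna3 (0.277), Mfsd7a (0.277) and Oit3 (0.281). For Klb they were Zbtb14 (0.0802), Tmem106b (0.0983), Osbpl8 (0.103), Pnpla8 (0.104), Zfyve16 (0.104), Dbt (0.105), Atp5a1 (0.107) and Fam126b (0.113). For the brighter Fgfr1 probe they were Atp2a2 (0.0622), Hlcs (0.0730), Ccne1 (0.0773), Fam53b (0.0866), Ergic1 (0.0867), Smap1 (0.0891), Kmt5a (0.0893) and Noct (0.0897). For Fgfr1 a small distance also reflects a shared pattern within the groups. The Z16078526 array lowest for Fgfr1 (centred log2 -0.47) was also lowest for all 8 neighbours (-0.48 for Atp2a2 to -0.29 for Ergic1). Their log2 differences between groups ran from -0.36 (Noct) to -0.17 (Kmt5a), against -0.30 for Fgfr1. The neighbours were chosen on these same arrays, so the shared low array and the similar differences follow from that choice.

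**Figure D4:**
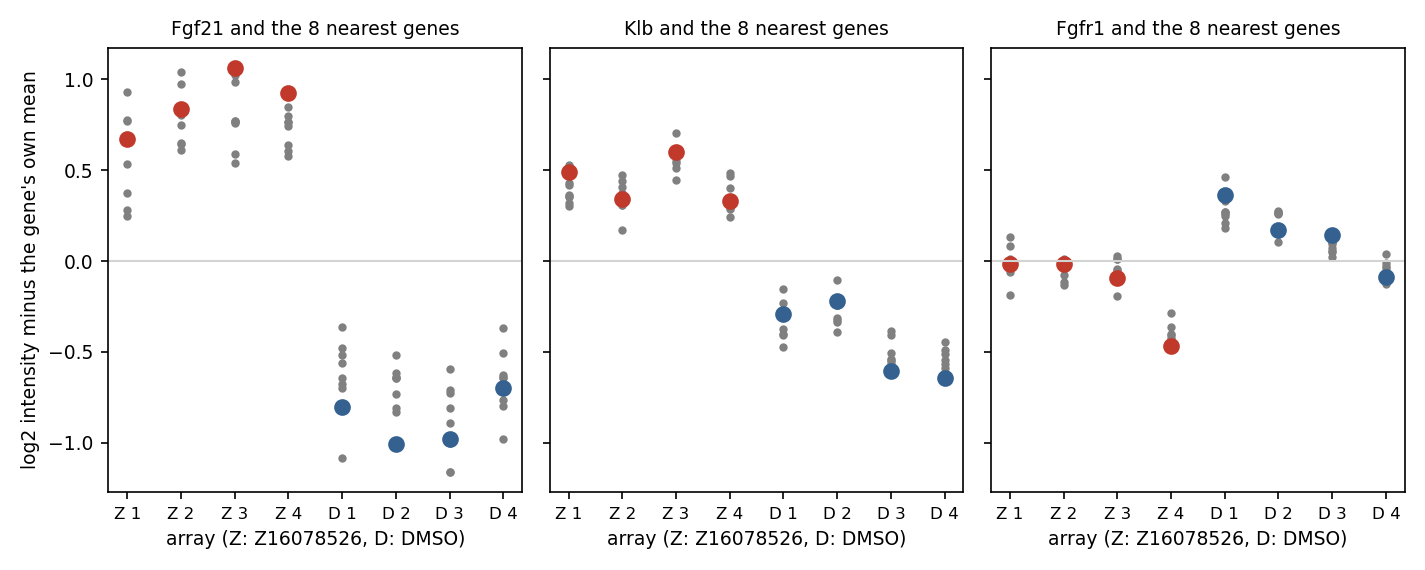
Centred log2 intensity over the 4 Z16078526 and 4 DMSO arrays of Fgf21, Klb and the brighter Fgfr1 probe (large points, red for Z16078526 and blue for DMSO) and of the 8 genes nearest to each (small grey points). The Fgf21 neighbours lie at distances of 0.215 to 0.281, farther than those of Klb (0.0802 to 0.113) or Fgfr1 (0.0622 to 0.0897). The distance is not scaled to the size of a gene's log2 difference, which was 1.75 for Fgf21, 0.88 for Klb and -0.30 for Fgfr1.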

How the data were processed

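The study measured total RNA of 8 samples by array, 4 per group. The authors deposited linear intensity values, 1 for each probe on each array. GenomeStudio is the software, with no version, per the submitters' processing notes. On each array 28.3% to 28.4% of deposited intensities lay below 0, and all arrays shared 1 upper quartile and maximum, so no further normalization was applied. Probe identifiers are Illumina's, although the labels cite Agilent for the labelling. The labels do not say that samples were separate cultures, so p-values reflect the spread among these 8 samples alone, which may be technical. No batch is labelled. The number of arrays limits precision.

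Probes were named by the platform table (23978 of 25697 had 1 symbol, 1719 none). Intensities were raised to at least 16 and log2 was taken, so differences of dim genes are understated. The probe with the highest mean intensity stood for each gene, and all probes were given for Fgf21, Klb and Fgfr1. limma 3.58.1 in R 4.3.3 (lmFit, eBayes with trend, two-sided, group only) was fitted over 16593 genes with Benjamini-Hochberg adjustment, and calls needed an adjusted p below 0.05. The fit was tested on simulated data. Figures were drawn with matplotlib 3.10.9.

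The genes and lists were chosen with earlier results of these data known. From each list beyond the receptor groups, the called genes (up to 5 per direction by smallest p) and defining factors were named. Alternatives changed scaling, floor, filter, variance model, replicate block, probe choice and left out each array. Promoter windows came from RefSeq.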

Additional observations from a re-analysis of the deposited data

Results flagged for a closer look

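A total of 19 groups of 4 arrays were tested for 1 value far from the others by Dixon's ratio, the gap to the nearest value over the group's range on the log2 scale, and chance flags about 1 in 20 groups. For Fgf23, DMSO array 4 (22.1) stood below the other DMSO arrays (31.7 to 32.4), with a ratio of 0.944. For the brighter Fgfr1 probe, array 4 of the Z16078526 group (78.4) stood below the others (102 to 107), with a ratio of 0.835. Without that array the log2 difference of Fgfr1 was -0.19.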

How the results depend on the processing

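The log2 difference of Fgf21 ran from 1.68 to 1.81 and that of Klb from 0.81 to 0.95 over the alternatives, and that of Fgfr1 from -0.37 to -0.19 when single arrays were left out, with -0.78 for the mean of its probes. The count of all genes called, 2516, was 1774 to 2465 when single arrays were left out, 884 when a change of over 1.5-fold was also required, and 3670 among genes above the floor on at least 4 arrays. Over the 7965 genes above the floor on all arrays, deviations of same-numbered arrays from their group means correlated at r = -0.06, 0.04, -0.15 and 0.10. Arrays of unlike number gave r from -0.13 to 0.14. Such values over many genes do not settle whether equal numbers mark a shared culture or day, which no label states. With the replicate block 1123 genes were called, and 21 of the 59 list genes were lost and 3 gained. Lost among the named genes were Araf, Ddit3, Ext2, Fap, Fgf7, Fgf12, Fgfr2, Ier3, Nr1d1, Pcsk7, Rora, Shc1, Slc7a5, Tgfb1, Ucp1 and Vldlr. With the replicate block the ATF4 targets called were 5 in place of 12, the adaptor genes 3 in place of 5 and the protease genes 1 in place of 3. Averaging each gene's probes, 9 of the 59 were lost, and Vldlr, a called ATF4 target, had a log2 difference of -0.44, reversed. Some settings mainly gained list calls. Among the 133 list genes it kept, the filter on dim genes gained 17 and lost 1. A robust variance gained 10 and lost 3, and array weights gained 8 and lost 0. With a pseudocount of 16, 5 genes of the FGF21-responsive list were called in place of 3, and with the filter on dim genes 6 of the feedback list, 5 higher and Ccnd1 lower, in place of 3. Dim genes (Fgf23, Fgfr2, Ret, Fap) are limited by signal over background. The causes were not tested.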

Other observations

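Of 16 measured TGF beta family ligands, the family of GDF15, 0 rose and 2 fell by limma, with a median log2 difference of 0, and 8 lay at the floor on all arrays, among them Inhbe, Bmp8b and Mstn. Before adjustment, 0 were higher and 3 lower at a p under 0.05. Beside Inhbb, Tgfb1 gave 338, 311, 331 and 351 on the Z16078526 arrays and 481, 418, 384 and 501 on the DMSO arrays (log2 difference -0.42, limma adjusted p = 0.0274). The Tgfb1 call was lost in 7 of the 8 fits that leave out an array, all but the one without DMSO array 3 (adjusted p up to 0.0791), and the list's count of 2 was then 1.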
